A study of Mus musculus with 2 samples.

Results

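The genes described here are 35 immediate early and heat shock genes, out of 32285 genes counted in single cells of mouse pancreatic tumours. They were taken by symbol from a list in 2 parts. The AP-1/Egr part holds 23 genes (the Fos, Jun, Egr, Nr4a, Ier, Dusp and Klf members with Atf3, Zfp36 and Btg2), and the heat shock part holds 12 (the Hsp70, Hsp90, Hsp60, Hsp10, Hsp110, Hsp40 and small heat shock members with the co-chaperone Bag3). The rule names them by symbol and uses no measured value, though the list was drawn up with earlier results of these data known, and every one was detected.

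KPC cells, a mouse pancreatic cancer model, were implanted orthotopically and the tumours were taken at day 21. The control library pooled 5 littermates with the floxed allele and no Cre (Porcnfl/fl, called WT), and the knockout library pooled 5 mice of the genotype Csf1r-Cre;Porcnfl/fl, in which Porcn, the acyltransferase that Wnt ligands need for secretion, is deleted in cells that use the Csf1r promoter, described as macrophages. The implanted tumour cells were the same in both groups, and the Cre belongs to the host. Both sets of tumours were digested for 30 min at 37 °C in collagenase V at 1.5 mg/mL with 0.1 mg/mL of DNase I, red cells were lysed and viable cells enriched. Each genotype is thus 1 library of pooled mice. No difference between the libraries has a replicate check, no test was made, and every interval below is a 95% interval that covers counting error only.

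Immediate early genes are transcribed within minutes of a stimulus without new protein synthesis. Growth factors, cytokines, stretch and stress reach them through MAP kinases, serum response factor and CREB, and many of their products are transcription factors, while others (Dusp1, Zfp36) end the response. Heat shock genes encode chaperones and are driven by heat shock factor 1, which binds inverted repeats of the letters GAA, called heat shock elements, when unfolded proteins accumulate. Both families are also known to respond when tissue is dissociated into single cells. The part of dissociation in the values below was not tested, since both libraries were digested in the same way.

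Stretches upstream of some members are shown first, chosen because they held a match to an element that these regulators bind. Each is the 150 bases before the RefSeq start site on build GRCm38.p6, 5′ to 3′ on the gene's strand, with the match in capitals. They were picked for printing after the matches were seen. Among those without a match of the element looked for in that stretch, and not shown, were Fos, Jun, Bag3 and Dnajb1. Capitals mark a heat shock element of 2 units (GAANNTTC or TTCNNGAA) in the first 5, a cAMP response element (TGACGTCA) in Dusp1 and a CArG box, the core of the serum response element, in Zfp36.
Hspa1a, chr17:34972157-34972306, minus strand: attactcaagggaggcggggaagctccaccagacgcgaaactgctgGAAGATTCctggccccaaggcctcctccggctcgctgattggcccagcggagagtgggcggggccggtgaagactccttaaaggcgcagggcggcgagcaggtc
Hspa1b, chr17:34959239-34959388, minus strand: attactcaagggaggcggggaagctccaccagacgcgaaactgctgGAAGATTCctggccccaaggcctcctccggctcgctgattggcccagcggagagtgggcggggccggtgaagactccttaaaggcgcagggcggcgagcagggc
Hspb1, chr5:135887769-135887918, plus strand: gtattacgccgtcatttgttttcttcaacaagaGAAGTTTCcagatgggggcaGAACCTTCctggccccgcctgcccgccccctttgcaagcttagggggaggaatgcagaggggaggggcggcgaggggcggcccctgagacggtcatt
Hsph1, chr5:149636337-149636486, minus strand: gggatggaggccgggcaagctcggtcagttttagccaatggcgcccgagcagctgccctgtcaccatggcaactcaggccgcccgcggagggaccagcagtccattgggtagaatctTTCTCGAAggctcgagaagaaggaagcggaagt
Hspe1, chr1:55087998-55088147, plus strand: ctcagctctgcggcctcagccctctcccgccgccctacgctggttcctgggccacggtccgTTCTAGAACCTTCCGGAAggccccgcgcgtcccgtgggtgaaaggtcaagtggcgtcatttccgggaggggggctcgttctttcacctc
Dusp1, chr17:26508473-26508622, minus strand: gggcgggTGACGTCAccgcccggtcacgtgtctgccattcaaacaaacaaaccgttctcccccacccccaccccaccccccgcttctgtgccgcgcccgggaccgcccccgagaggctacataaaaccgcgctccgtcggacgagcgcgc
Zfp36, chr7:28379229-28379378, minus strand: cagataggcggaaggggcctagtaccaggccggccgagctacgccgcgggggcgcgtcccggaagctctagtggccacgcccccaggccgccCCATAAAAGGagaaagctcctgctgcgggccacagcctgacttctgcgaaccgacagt

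Hspa1a and Hspa1b, the inducible Hsp70 genes, lie next to each other on chromosome 17 (34969190 to 34972156 and 34956436 to 34959238, both on the minus strand), and their printed stretches were identical at 149 of 150 positions. The match in each started 104 bases before the start site. Hspe1 held 3 overlapping matches, and its window of 300 bases shares 285 bases with one of the opposite-strand gene Hspd1, so the mitochondrial chaperonin pair has a common upstream region. Over windows of 300 bases (250 before to 50 after the start), read on both strands, the element of 2 units stood in 8 of the 9 heat shock members that had an entry (all but Dnajb1) and in 3 of 19 AP-1/Egr members (Fosl2, Jun and Egr2), against 15.06% of 32851 windows of all genes. The element of 3 units (GAANNTTCNNGAA or TTCNNGAANNTTC, which contains the shorter one) stood in Hsph1, Hspe1 and Hspd1, in 0 of the 19 AP-1/Egr members and in 0.6027% of all windows. The CArG box was found in Egr2 and Zfp36 (1.629% of all windows) and the cAMP response element in Dusp1 and Btg2 (1.79%). A TATA box (TATAAA) stood in 3 AP-1/Egr members, Fos, Junb and Nr4a2, and in 0 of 9 heat shock members (13.62% of windows). A CCAAT box stood in 8 and 6 of them (37.41%), and the AP-1 site (TGANTCA) in Bag3 only (7.808%). A member was counted if any of its windows matched, while the background is a share of single windows, so the 2 are not fully alike. Hspe1 and Hspd1, and Hspa1a and Hspa1b, were also counted apart despite their shared or near-identical stretches. A match describes the letters and is no evidence of binding.

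The libraries held 173934025 and 137527647 unique molecular identifiers (UMIs, each counted as 1 captured transcript) in 13766 control and 12251 knockout barcodes, of which 46 occurred in both. After filtering, 11516 and 10467 cells remained, with median UMIs of 12167.5 and 10109 and median mitochondrial shares of 2.10% and 1.58%. Clusters were named from fixed markers as "X-like", and 5 classes had at least 100 cells in each library and were compared: tumour-like (9434 control and 5773 knockout cells), T-like (191 and 1626), fibroblast-like (670 and 763), monocyte/macrophage-like (505 and 554) and neutrophil-like (293 and 185). The markers of each were detected in its own cells. The neutrophil markers summed to 158807 CPM (counts scaled to 1000000 UMIs of a class) in the control and 79381 in the knockout library. The T-like class differed most in size, so its control values rest on few cells. Porcn had 1212 and 637 UMIs in all kept cells but only 8 and 4 in monocyte/macrophage-like cells, too few to check the deletion, and whether the counted 3′ end lies in the deleted stretch is not given in the sources used here. Epithelial markers, which free RNA from tumour cells would bring into other classes, stood at 3.43% and 2.40% of their tumour-like level in T-like cells, 11.6% and 3.96% in fibroblast-like, 5.38% and 3.17% in monocyte/macrophage-like and 4.05% and 3.69% in neutrophil-like cells (control, then knockout). Krt19 and Msln, however, stand in both the epithelial and the mesothelial marker list. Fibroblast-like cluster A16, with 265 control and 46 knockout cells, scored high for mesothelial markers (0.869). In fibroblast-like cells, free RNA and transcripts of the cells themselves were thus not told apart. The part of either in the member values was not tested.

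**Figure D1:**
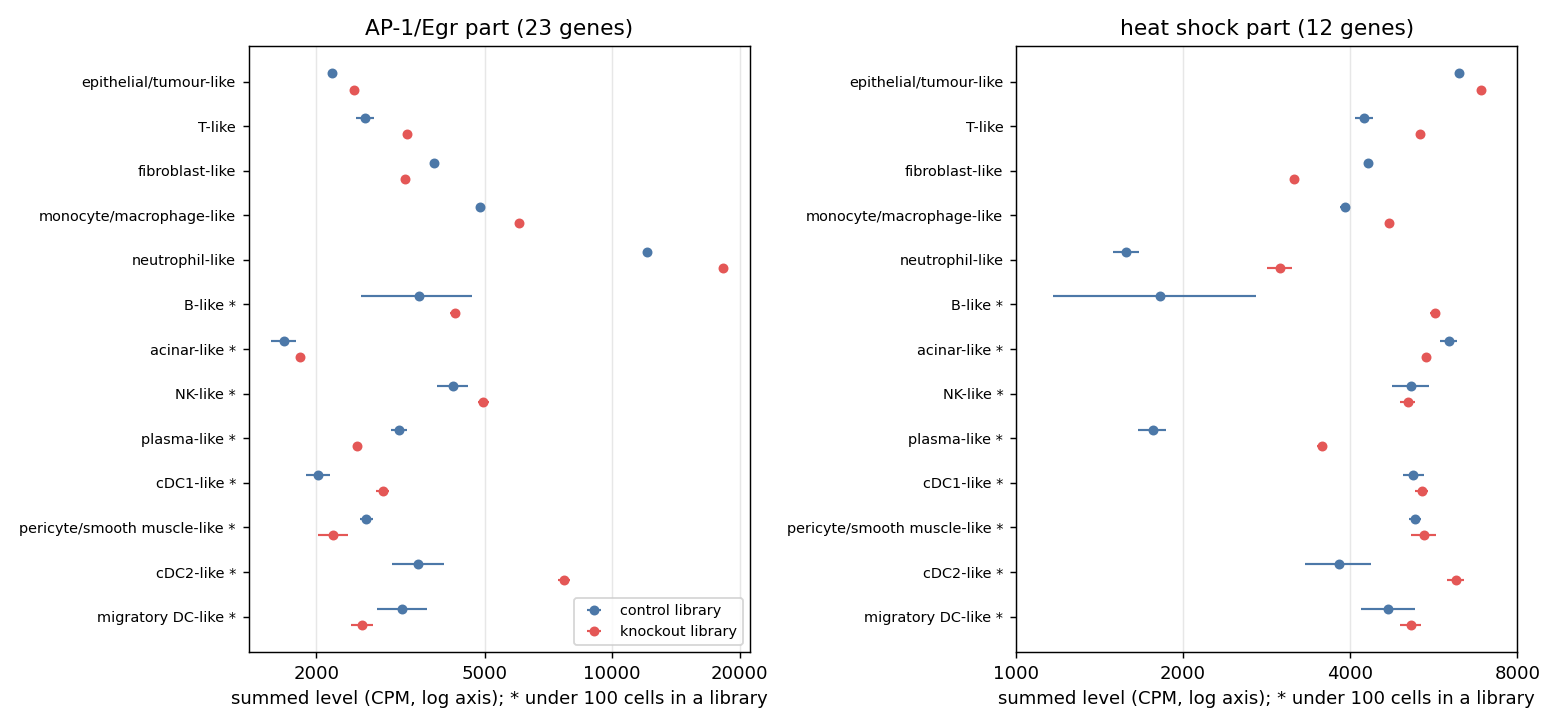
Summed level of the AP-1/Egr part (left) and the heat shock part (right) in each class, as CPM on a log axis, with 1 point per library and its Poisson 95% interval; classes with an asterisk had under 100 cells in a library. Neutrophil-like cells had the highest AP-1/Egr level in both libraries (12082 and 18314 CPM) and, among the 5 classes compared, the lowest heat shock level (1577 and 2986 CPM).

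The summed levels ordered the classes differently in the 2 parts, as the plot of levels by class shows. The AP-1/Egr part took 1.21% of the UMIs of neutrophil-like cells in the control and 1.83% in the knockout library, and 0.217% and 0.246% of those of tumour-like cells. In the knockout library, cDC2-like cells (94 cells, 7699 CPM) followed the neutrophil-like ones, then monocyte/macrophage-like (6014), NK-like (4962) and B-like cells (4246). T-like (3277 CPM) and fibroblast-like cells (3232 CPM) were not separated there, as their counting intervals overlapped. The cDC2-like class was 1 cluster, led by Lyz2, Ms4a6c, Tyrobp and Ccr2, with monocyte/macrophage as its next class by markers. At Leiden resolution 0.5 and under a stricter cell filter, a cluster with like leading genes was named monocyte/macrophage. The name cDC2-like is thus uncertain. In the knockout library the heat shock part was highest in tumour-like cells (6873 CPM) and lowest in neutrophil-like ones (2986 CPM). Next to tumour-like cells came cDC2-like (6198 CPM) and B-like cells (5678). Acinar-like (5472 CPM), pericyte/smooth muscle-like (5428), cDC1-like (5377) and T-like cells (5340) followed. From acinar-like to T-like, each overlapped its neighbour in this order in counting error. The intervals of acinar-like (5404 to 5540) and T-like cells (5286 to 5396) did not overlap. The acinar-like class (43 control and 327 knockout cells) had only 3 and 18 cells at Leiden resolution 2. That clustering also gave 56 and 9 pericyte/smooth muscle-like and 55 and 24 endothelial-like cells, so these names depend on the clustering.

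Between the libraries, the summed levels of both parts were higher in the knockout library in 4 of the 5 classes and lower in fibroblast-like cells. The AP-1/Egr part went from 2173 to 2459 CPM in tumour-like cells (ratio 1.13), from 2607 to 3277 in T-like cells (1.26), from 4866 to 6014 in monocyte/macrophage-like cells (1.24) and from 12082 to 18314 in neutrophil-like cells (1.52). In fibroblast-like cells it went from 3802 to 3232 CPM (0.85, interval 0.836 to 0.864). The heat shock part went from 6274 to 6873 CPM (1.1), 4241 to 5340 (1.26), 3916 to 4707 (1.2) and 1577 to 2986 (1.89) in the same 4 classes, and from 4304 to 3171 CPM (0.737, interval 0.725 to 0.749) in fibroblast-like cells, where the epithelial markers were also lower in the knockout library, as given above. In monocyte/macrophage-like cells the AP-1/Egr difference lay in the sum rather than in the typical cell: the median cell had 0.496% of its UMIs in the part in the control and 0.479% in the knockout library. The median log2 ratio of the members there was -0.10 when cells were averaged alike, against 0.18 for summed UMIs. These ratios mix what cells of a cluster did with which clusters made up the class, and within clusters the tumour-like ratios were mostly below 1 and the neutrophil-like AP-1/Egr ratios closer to 1.

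**Figure D2:**
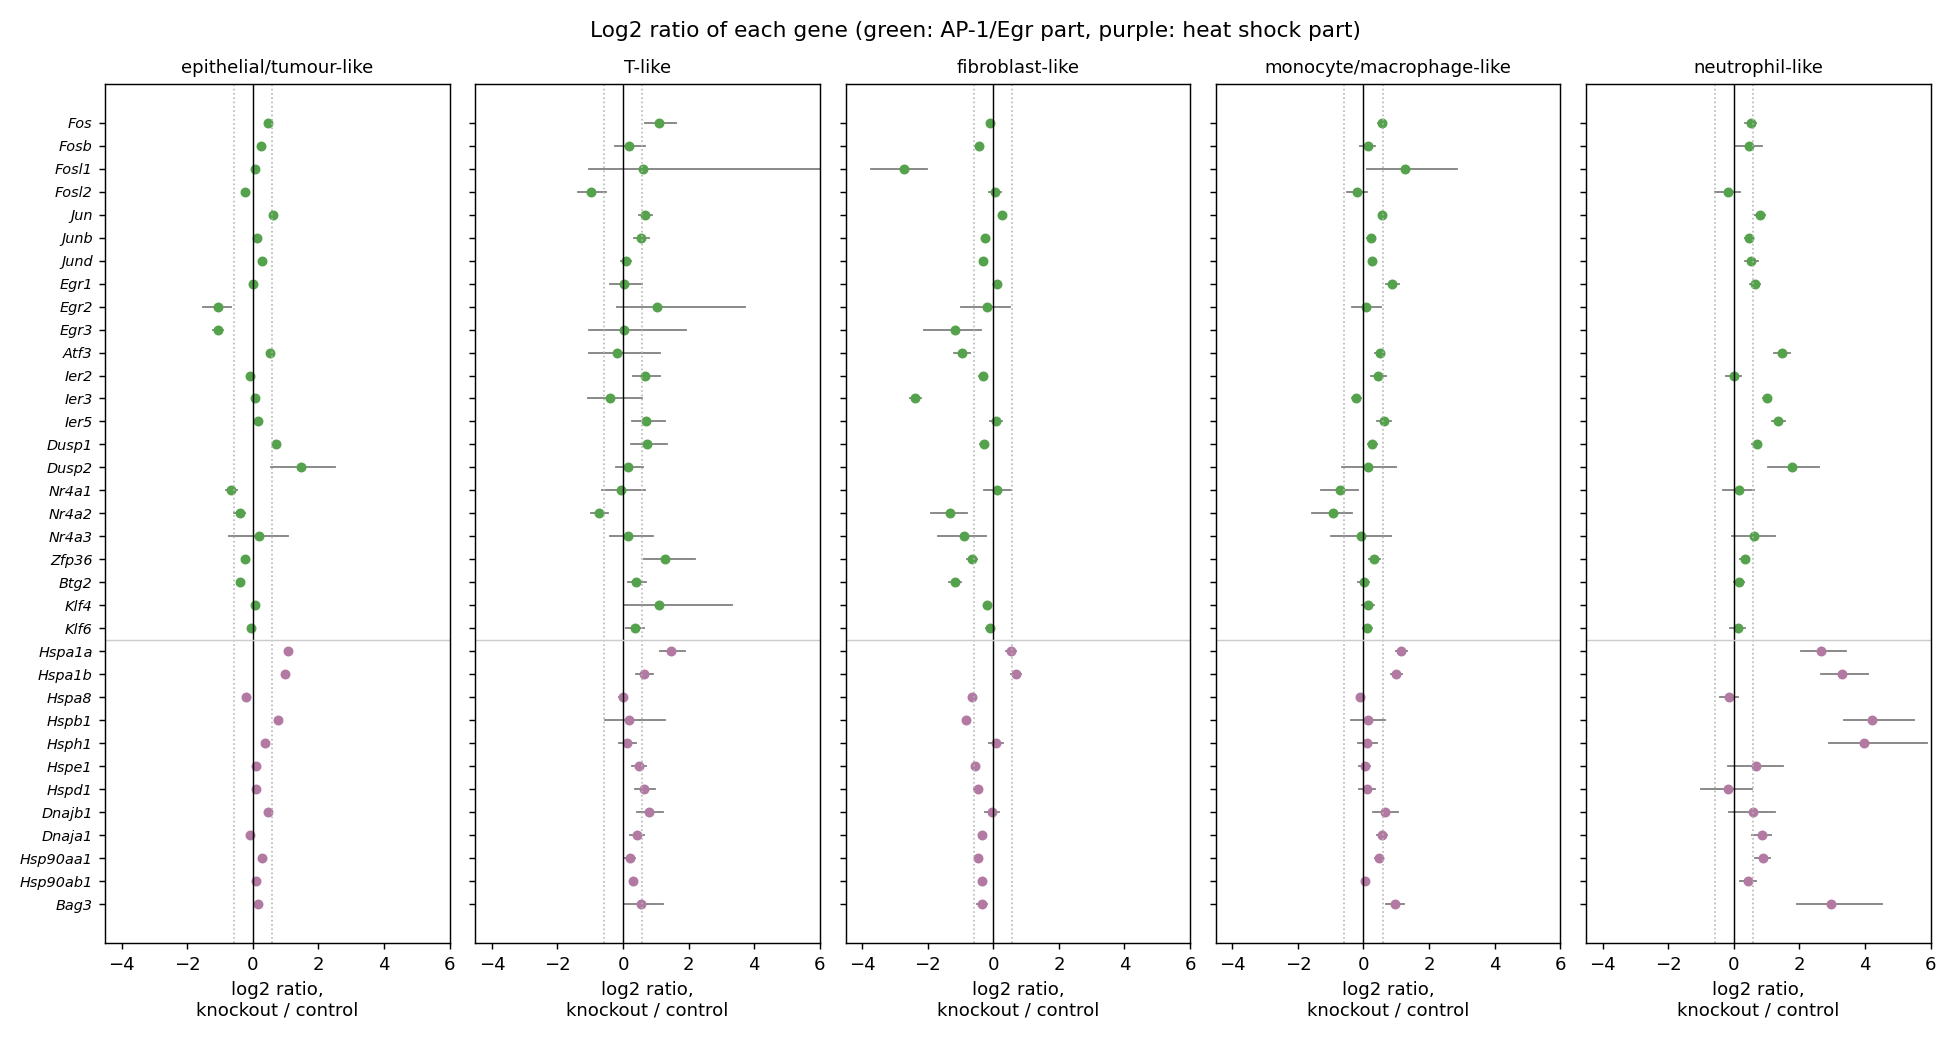
Log2 ratio of each gene, knockout over control, in the 5 classes, with its 95% counting interval (green, AP-1/Egr part; purple, heat shock part). Hspa1a and Hspa1b lie to the right of 0 in every panel, and Ier3 reaches -2.37 in fibroblast-like cells and 1.02 in neutrophil-like cells.

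A member was counted as higher or lower when it had at least 20 UMIs in the class over both libraries and differed by at least 1.5-fold. The share of all genes past that fold is the background for these counts. In tumour-like cells, 3 of 23 AP-1/Egr members were higher and 3 lower and 3 of 12 heat shock members were higher and 0 lower, where 9.73% of all genes were higher and 6.53% lower. In T-like cells the counts were 9 higher (3 with a pseudocount of 5 UMIs) and 2 lower of 23, and 4 and 0 of 12, against 10.1% and 16.5% of all genes. Fibroblast-like cells had 0 higher and 8 lower of 22, and 1 and 2 of 12, against 19.7% and 12.4%. Monocyte/macrophage-like cells had 3 higher (11 under a stricter cell filter of 1000 genes and 10% mitochondrial UMIs) and 2 lower of 22, and 4 and 0 of 12, against 7.92% and 9.83%. Neutrophil-like cells had 8 higher (3 with clusters weighted alike) and 0 lower of 18, and 8 and 0 of 12, against 16.8% and 18.7%. The median log2 ratio of the AP-1/Egr part was 0.07, 0.36, -0.30, 0.18 and 0.53 in the order tumour-like, T-like, fibroblast-like, monocyte/macrophage-like and neutrophil-like, that of the heat shock part 0.21, 0.45, -0.35, 0.30 and 0.87, and that of all genes -0.06, -0.07, 0.10, -0.02 and -0.05.

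Hspa1a and Hspa1b, whose near-identical upstream stretches are printed above, were the members with the most even direction. Hspa1a stood at 40.7 CPM in the control and 86.0 in the knockout library in tumour-like cells (log2 ratio 1.08, interval 1.03 to 1.13), 90.1 and 252 CPM in T-like cells (1.46, 1.11 to 1.88) and 197 and 441 CPM in monocyte/macrophage-like cells (1.16, 1.004 to 1.32). In fibroblast-like cells, where the part as a whole was lower, it was 64.2 and 93.2 CPM (0.54, 0.38 to 0.69). Neutrophil-like cells had 29.1 and 191 CPM (2.67, 2.05 to 3.43), from 24 and 88 UMIs, of which the top 5 cells held 70.8% and 77.3%. Hspa1b gave log2 ratios of 0.98, 0.63, 0.69, 0.99 and 3.30 in the order tumour-like, T-like, fibroblast-like, monocyte/macrophage-like and neutrophil-like. The last 500 bases of their transcripts shared 0% of 90-base windows with another gene, so the 3′ reads can tell the 2 copies apart. Each log2 ratio stayed above 0 under all 16 ways of processing (15 in neutrophil-like cells), the lowest being 0.44 for Hspa1a and 0.53 for Hspa1b.

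The level of Hspa1a also differed between classes of one library. In the knockout library it was highest in cDC2-like cells (1165 CPM), whose name is uncertain as given above. B-like (491), monocyte/macrophage-like (441) and cDC1-like cells (283) followed, then T-like (252) and NK-like cells (251). Hspa1a was lowest in acinar-like cells (81.4 CPM). Thinned to 1000 UMIs a cell, the share of cells with an Hspa1a UMI was 3.70% and 5.94% of tumour-like, 8.24% and 19.0% of T-like, 4.67% and 8.31% of fibroblast-like and 17.5% and 33.7% of monocyte/macrophage-like cells. The unthinned shares were 23.6% and 31.0%, 15.7% and 37.0%, 36.6% and 36.0%, and 30.3% and 53.8%, so in fibroblast-like cells the shares differed only once depth was matched (median UMIs 12411.5 and 9129). In neutrophil-like cells the thinned shares were 2.87% (interval 1.25 to 5.57) and 6.01% (3.04 to 10.5), a difference not detectable at this number of cells. No class here is known to lack Hspa1a, so these shares have no empty class to be read against.

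**Figure D3:**
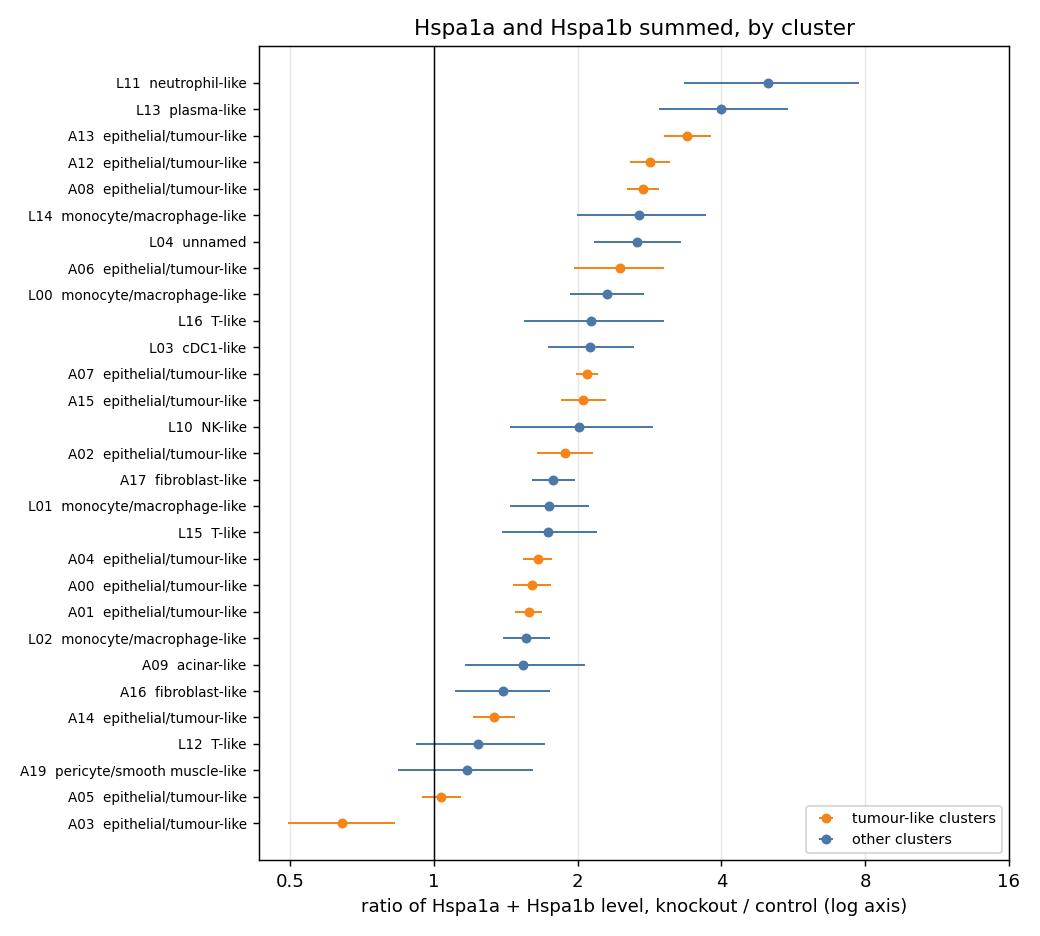
Ratio of the summed Hspa1a and Hspa1b level, knockout over control, in each of 29 clusters, on a log axis with 95% counting intervals. The clusters had at least 20 cells in each library and at least 20 UMIs of the pair over both libraries. The ratio is above 1 in 28 clusters and 0.641 in the tumour-like cluster A03; the 5.01 of L11 rests largely on 1 knockout cell.

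Within clusters, the direction of this pair was the same almost throughout. The summed level was higher in the knockout library in 28 of 29 clusters, with an interval above 1 in 25. Clusters needed at least 20 UMIs of the pair, so neutrophil-like L05, with 4 and 8 UMIs, was left out. In these 28, ratios ranged from 1.04 in tumour-like cluster A05 to 5.01 in neutrophil-like cluster L11, where 38 Hspa1a and 62 Hspa1b UMIs of the 170 in the knockout library lay in 1 cell. Without the cell of each library with the most heat shock UMIs, L11 had a ratio of 1.90 (interval 1.21 to 3.06). Plasma-like cluster L13 had 3.998, and tumour-like cluster A13, which joins unlike cells as described below, 3.40. The exception, A03, had 108 and 69.4 CPM (ratio 0.641, interval 0.495 to 0.830) and was a cluster of shallow cells, with median UMIs of 3949 and 3911 and median mitochondrial shares of 6.60% and 5.83%. Among tumour-like clusters alone the ratio was above 1 in 12 of 13, with a median of 1.88 over clusters.

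The other heat shock members were less even. Hspa8, the constitutive Hsp70 that differs from Hspa1a in being made without stress, was below 0 in all 5 classes, but stayed there under every way of processing in only 3. It went from 1237 to 1073 CPM in tumour-like cells (-0.21) and from 778 to 492 CPM in fibroblast-like cells (-0.66). In T-like cells it hardly differed (-0.014, from 545 and 5512 UMIs). Its 3′ end shares 79.81% of its 90-base windows with other loci, mostly pseudogenes, so its level is uncertain. The Hsp40 co-chaperone Dnajb1, which hands clients to Hsp70, was 88.6 and 155 CPM in T-like cells (0.78) and 38.2 and 60.3 CPM in monocyte/macrophage-like cells (0.65). Bag3, a co-chaperone that couples Hsp70 to autophagy, was 67.0 and 130 CPM in monocyte/macrophage-like cells (0.96). Dnaja1 and Hsp90aa1, the stress-inducible cytosolic Hsp90, stood at log2 ratios of 0.57 and 0.46 there, short of the fold. Hsp90ab1, the constitutive Hsp90, did not pass the fold in any class. The mitochondrial chaperonin genes Hspd1 and Hspe1 were higher in T-like cells, at 134 and 211 CPM (0.64) for Hspd1, and 0.48, short of the fold, for Hspe1.

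Hspb1, the small heat shock protein Hsp27, stood on opposite sides of 0 in tumour-like and fibroblast-like cells. It was 413 and 708 CPM in tumour-like cells (0.78, interval 0.76 to 0.79) and 605 and 338 CPM in fibroblast-like cells (-0.84, -0.91 to -0.77). In fibroblast-like cells the 2 clusters disagreed: in A16, Hspb1 was 879 and 1945 CPM, and in A17 it was 314 and 237 CPM. Cluster A16, which also scored high for mesothelial markers, held 265 control but only 46 knockout cells, against 405 and 717 in A17. The lower pooled value therefore goes with fewer A16 cells, and with the clusters weighted alike the log2 ratio was 0.48.

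**Figure D4:**
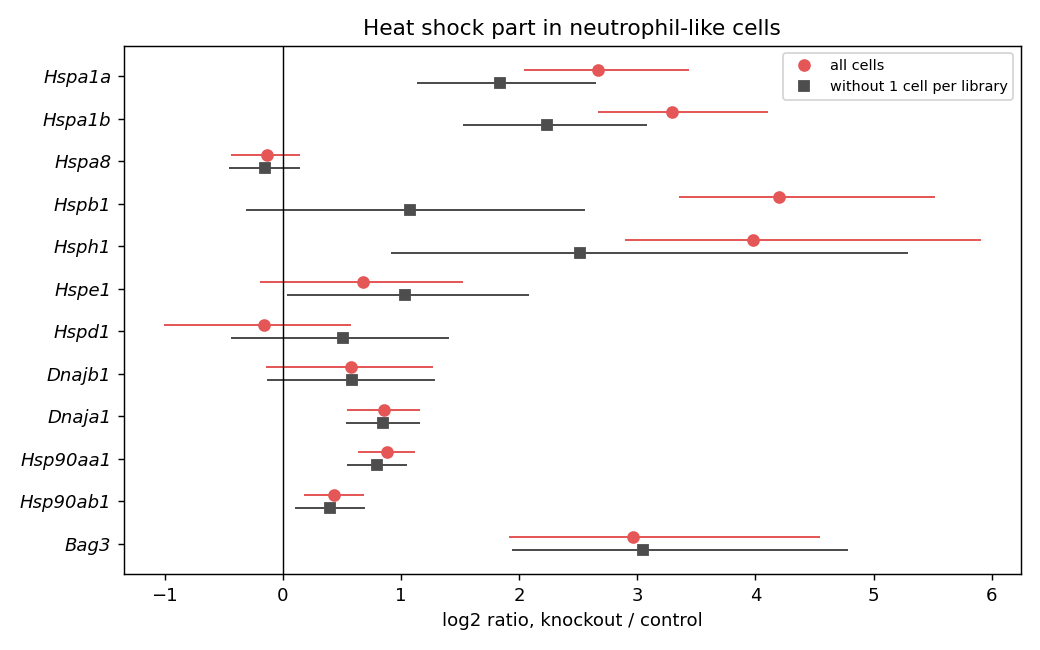
Log2 ratio of each heat shock gene in neutrophil-like cells with all cells and without, in each library, the 1 cell with the most heat shock UMIs; bars are 95% counting intervals. Hspb1 drops from 4.20 to 1.08, with an interval that then includes 0, while Bag3, Dnaja1 and Hsp90aa1 stay in place.

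In neutrophil-like cells a good part of the heat shock counts came from 1 cell of the knockout library. This cell, in cluster L11, had 5466 UMIs in 1578 genes, of which 350 (6.40%) were heat shock UMIs, 25.4% of the 1379 of its class. It held 91 of the 102 Hspb1 UMIs, 62 of 120 for Hspa1b, 40 of 52 for Hsph1 and 38 of 88 for Hspa1a. It had UMIs of 5 of the 8 neutrophil markers (16 UMIs) and 3 UMIs of epithelial markers. The cell with the most heat shock UMIs in the control library held 164 of 1302 (12.6%). Without these 2 cells the part went from 1419 to 2255 CPM (ratio 1.59, interval 1.46 to 1.73). Hspa1a was then at a log2 ratio of 1.84 (1.14 to 2.64), Hspa1b at 2.24, Hsph1, the Hsp110 that exchanges the nucleotide of Hsp70, at 2.51 from 3 and 12 UMIs, and Hspb1 at 1.08 (-0.31 to 2.55). Bag3 was at 3.05, from 6 and 32 UMIs, but 28 of its 34 knockout UMIs lay in another single cell. Within L11 alone and without these 2 cells, Hspa1a had 16 and 28 UMIs (ratio 1.33, interval 0.694 to 2.63), not distinguishable from 1.

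Among the AP-1 members, Jun, a leucine zipper factor that pairs with Fos proteins, was higher in the knockout library in every class and under every way of processing, as were only Hspa1a and Hspa1b of the 35. It stood at 202 and 311 CPM in tumour-like cells (0.62), 379 and 608 in T-like (0.68), 519 and 622 in fibroblast-like (0.26), 682 and 1001 in monocyte/macrophage-like (0.55) and 923 and 1613 CPM in neutrophil-like cells (0.81). It was above 0 in 27 of 30 clusters. Fos, its partner, was 60.1 and 131 CPM in T-like cells (1.09, from 40 and 890 UMIs) and had log2 ratios of 0.45, 0.55 and 0.52 in tumour-like, monocyte/macrophage-like and neutrophil-like cells and -0.10 in fibroblast-like cells. Of the tumour-like Fos UMIs, 774 of 11552 in the control and 1978 of 10362 in the knockout library lay in 41 and 51 cells. These cells are the Pkhd1 cluster described with A13 below. Within clusters Fos had no common side, at 17 of 30 above 0, and at 6 of 13 among tumour-like clusters. Fosb, Junb and Jund did not pass the fold in any class. Atf3, a stress-induced factor of the ATF family, was 294 and 814 CPM in neutrophil-like cells (1.47) and 50.1 and 25.7 CPM in fibroblast-like cells (-0.96).

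The late Fos relatives followed another pattern. Fosl1, which cells under lasting ERK signalling make, was 13.3 and 1.87 CPM in fibroblast-like cells (134 and 14 UMIs, -2.74, interval -3.74 to -2.03), the lowest ratio of any member there. Of the 134 control UMIs, 31.3% lay in 5 cells. Tumour-like cells held 6849 and 4732 Fosl1 UMIs, and epithelial markers stood in fibroblast-like cells at 11.6% and 3.96% of their tumour-like level. The part of this was not tested. In monocyte/macrophage-like cells Fosl1 was 3.01 and 7.84 CPM (7 and 22 UMIs, 1.25), a ratio that changed sign under 2 ways of processing (-0.19 and -0.34). With 1 control UMI in T-like cells against 30 in the knockout library, its ratio there (0.60, -1.03 to 6.91) is not determined. Fosl2 was on the lower side in 4 of 5 classes and past the fold in T-like cells, at 81.1 and 41.8 CPM (-0.98).

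The zinc finger factors of the Egr family moved apart. In neutrophil-like cells Egr1 was 855 and 1334 CPM (0.64), but its log2 ratio was -0.17 with clusters weighted alike. Within L11, without 1 cell per library, Egr1 was lower in the knockout library (ratio 0.861, interval 0.761 to 0.974). Egr1 was 123 and 226 CPM in monocyte/macrophage-like cells (0.87), and within 0.11 of 0 in tumour-like, T-like and fibroblast-like cells. Egr3, by contrast, was 9.41 and 4.48 CPM in tumour-like cells (-1.07, interval -1.23 to -0.92) and was lower by the fold in 11 of the 12 tumour-like clusters with enough UMIs. Egr3 was also lower in fibroblast-like cells, from 50 and 16 UMIs (-1.15). Egr2 was 1.31 and 0.618 CPM in tumour-like cells (-1.06), and lower by the fold in 6 of 7 tumour-like clusters. In T-like cells Egr2 was on the higher side, from 3 and 82 UMIs (1.02, interval -0.18 to 3.73).

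Of the Nr4a orphan nuclear receptors, which T cells and myeloid cells switch on after stimulation, Nr4a2 was lower in the knockout library in all 4 classes where it could be read and under every way of processing. It was 6.51 and 4.93 CPM in tumour-like cells (-0.40), 212 and 129 CPM in T-like cells (-0.72, interval -0.97 to -0.45), 12.9 and 5.08 CPM in fibroblast-like cells (-1.32) and 26.2 and 13.5 CPM in monocyte/macrophage-like cells (-0.94). Nr4a1 was lower in tumour-like cells (6.17 and 3.91 CPM, -0.66). In monocyte/macrophage-like cells its log2 ratio of -0.71, from 67 and 49 UMIs, changed sign under 3 ways of processing. Nr4a3 was 6.15 and 3.21 CPM in fibroblast-like cells (-0.90) and 55.7 and 84.4 CPM in neutrophil-like cells (0.61, interval -0.05 to 1.25, from 46 and 39 UMIs).

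The genes that end or damp the response were higher in some classes and lower in others. Dusp1, a phosphatase that switches off p38 and JNK kinases and whose upstream stretch holds the cAMP response element shown above, was 29.7 and 48.2 CPM in tumour-like cells (0.70), 46.6 and 78.8 in T-like cells (0.72) and 1144 and 1864 CPM in neutrophil-like cells (0.71). It was at -0.29 in fibroblast-like cells. Dusp2 was 27.9 and 97.4 CPM in neutrophil-like cells (1.78), the highest AP-1/Egr ratio there, and had only 15 and 28 UMIs in tumour-like cells (1.46, interval 0.55 to 2.51). Zfp36, which encodes tristetraprolin and brings about the decay of cytokine mRNAs, was 24.04 and 61.7 CPM in T-like cells (1.28, 0.64 to 2.18, from 16 and 419 UMIs) and 98.2 and 62.7 CPM in fibroblast-like cells (-0.65). Btg2, an antiproliferative gene, was 100.2 and 44.8 CPM in fibroblast-like cells (-1.16).

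The Ier genes and Klf factors completed the part. Ier3, which modulates survival and ERK signalling, was 224 and 43.1 CPM in fibroblast-like cells (-2.37, interval -2.55 to -2.21), and lower in both clusters of that class (309 and 38.3 CPM in A16, 133 and 43.4 CPM in A17). Ier3 stood at 204 and 212 CPM in tumour-like cells, and epithelial markers in fibroblast-like cells at 11.6% and 3.96% of their tumour-like level; the part of this was not tested. In neutrophil-like cells Ier3 was instead 1188 and 2410 CPM (1.02). Ier5, which assists heat shock factor 1, was above 0 in every class, at 54.1 and 90.9 CPM in T-like cells (0.71), 120 and 184 CPM in monocyte/macrophage-like cells (0.62) and 424 and 1083 CPM in neutrophil-like cells (1.35). Ier2 was past the fold only in T-like cells, at 76.6 and 124 CPM (0.67). Klf6 did not pass the fold in any class, and Klf4 did so only in T-like cells, from 4 and 109 UMIs (1.11, interval 0.02 to 3.32).

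**Figure D5:**
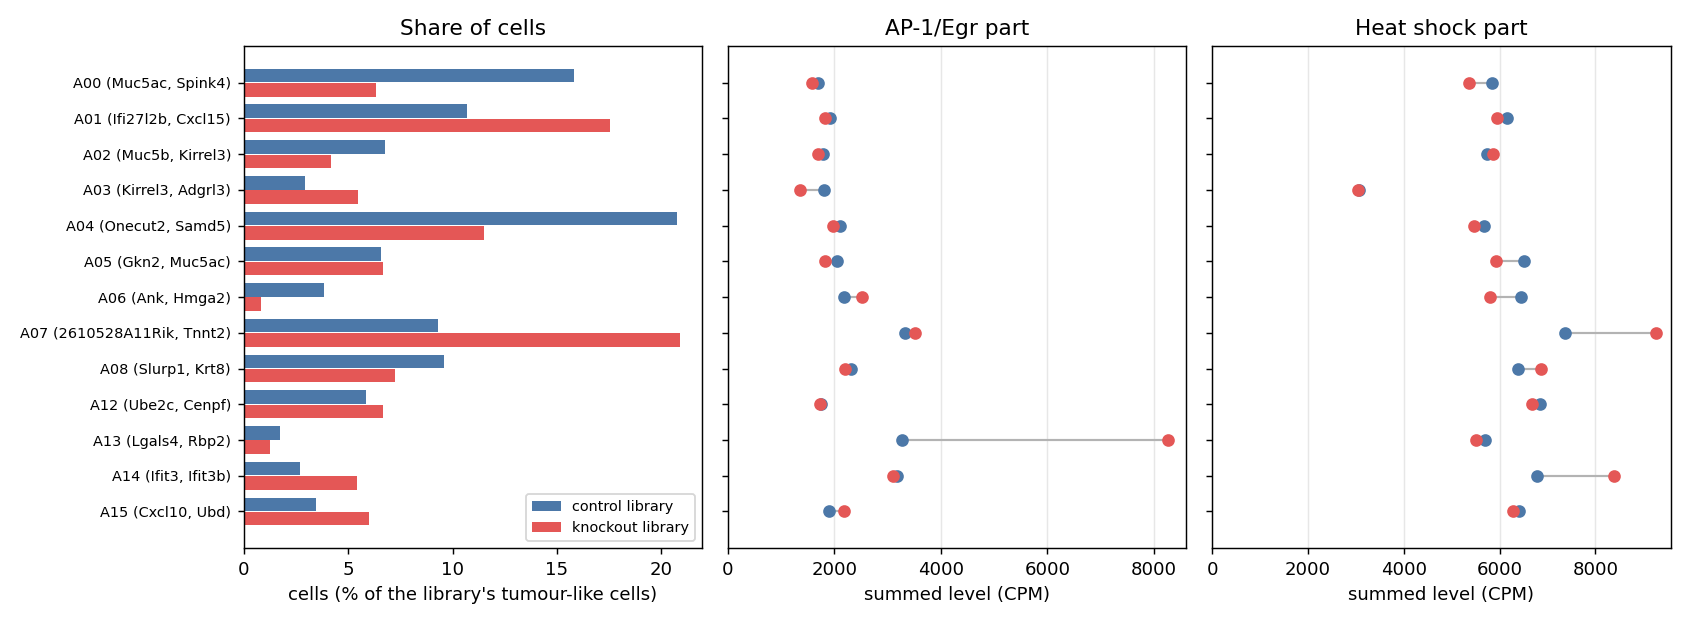
The 13 tumour-like clusters: share of each library's tumour-like cells (left, percent), and summed level of the AP-1/Egr part (middle) and heat shock part (right) in each library (CPM). Cluster A07 holds 878 control and 1207 knockout cells and has a heat shock level of 7358 and 9258 CPM, while the AP-1/Egr level is lower in the knockout library in 9 of the 13 clusters.

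Most tumour-like clusters lay on the other side of 1 from the pooled ratio. The AP-1/Egr part was higher in the knockout library over the class (1.13) but lower in 9 of its 13 clusters, and the heat shock part (1.1) was also lower in 9 of 13. The median ratio over clusters was 0.954 and 0.978. Cell numbers moved in both directions among clusters of low AP-1/Egr level: A00 (Muc5ac, Spink4; 1689 and 1579 CPM) held 1494 and 367 cells, but A01 (1921 and 1833 CPM) held 1011 and 1013. The knockout library had more cells in A07, led by Tnnt2, Grem1 and Inhba (878 and 1207 cells), where the AP-1/Egr level was 3334 and 3520 CPM. Heat shock genes were higher within A07 too (7358 and 9258 CPM, ratio 1.26), where Hspb1 stood at 767 and 1531 CPM and Hspa1a at 42.3 and 98.2 CPM, and within the interferon gene cluster A14 (6792 and 8387 CPM, ratio 1.23).

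Cluster A13 (165 control and 74 knockout cells) had the highest pooled ratio, with an AP-1/Egr level of 3263 and 8264 CPM (2.53), but it joined cells of unlike kinds. At Leiden resolution 2 its cells fell almost wholly into a cluster led by Lgals4, Rbp2 and Spink4 (122 control and 23 knockout cells) and a cluster led by Pkhd1, Ttr, Tff2 and Dcdc2a, with Epcam among its leading genes (41 and 51 cells). In the Lgals4 cluster the AP-1/Egr level was 1714 and 1750 CPM (ratio 1.02, interval 0.960 to 1.08), and in the Pkhd1 cluster 10916 and 11602 CPM (1.06, 1.03 to 1.09). The pooled ratio of A13 thus goes with the larger share of the Pkhd1 cluster among its knockout cells. The Pkhd1 cluster scored 0.802 for epithelial/tumour markers and 0.858 for islet markers, of which too few were detected for that name. The epithelial/tumour markers do not separate implanted tumour cells from host epithelial cells. The name tumour-like is thus uncertain for this cluster, and its origin was not tested. In the Pkhd1 cluster Jun stood at 2610 and 2569 CPM. This small cluster held 7591 of the 326079 control and 16641 of the 242718 knockout AP-1/Egr UMIs of tumour-like cells. For Egr1 it held 595 of 9692 and 1272 of 6437. The class ratios of such members thus rest partly on it. Hspa1a was higher in both clusters, at 34.7 and 65.3 CPM in the Lgals4 cluster and 175 and 313 CPM in the Pkhd1 cluster. This split was looked at after the value of A13 had been seen.

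In tumour-like cells the levels of both parts also moved with the mitochondrial share of UMIs. The cells of each library were split by that share into 3 groups of like size. The AP-1/Egr part went from 2559 CPM in the lowest group to 1889 in the highest in the control library, and from 3177 to 1929 in the knockout library. The heat shock part went from 6817 to 5665 CPM and from 8539 to 5543 CPM. Between the libraries, levels were close in the highest group and higher in the knockout library in the lowest. The groups were cut within each library and are not matched for the share. Its median was 1.13% and 0.621% in the lowest group and 3.83% and 2.86% in the highest. Cluster A07 had median shares of 0.967% and 0.608%. Levels did not go down with the mitochondrial share in every other class. From the lowest to the highest group, the AP-1/Egr part went from 22842 to 6897 CPM and from 25571 to 11209 CPM in neutrophil-like cells, but from 4862 to 5649 and from 6141 to 6710 CPM in monocyte/macrophage-like cells. In T-like cells it went from 2441 to 2771 CPM in the control and from 3500.3 to 3104 in the knockout library. The median mitochondrial share of tumour-like cells was 2.15% and 1.67%, and its part in the class ratios was not tested beyond the split.

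The neutrophil-like difference was likewise smaller within clusters. The AP-1/Egr part was 20082 and 22566 CPM in L05 (ratio 1.12) and 20457 and 22383 CPM in L11 (1.09), against 1.52 over the class. Cluster L09, led by the granule genes Camp and Ngp of immature neutrophils, had low levels (3668 and 4100 CPM) and 54 control but only 10 knockout cells. The heat shock part kept a difference within L11 (2312 and 3729 CPM, 1.61, interval 1.46 to 1.79). Without the cell of each library with the most heat shock UMIs, L11 had a heat shock ratio of 1.43 (1.26 to 1.62) and an AP-1/Egr ratio of 0.993 (0.957 to 1.03). In monocyte/macrophage-like cells the AP-1/Egr part was higher in 3 of 4 clusters, with 3999 and 6305 CPM (1.58) in L00 (Arg1, Mmp12), 4633 and 5621 CPM (1.21) in the C1q cluster L02 and 1.11 in L14. It was lower in L01, at 8315 and 6969 CPM (0.838). The heat shock part was higher in all 4, by 1.12 to 1.59. In T-like cells it was higher in the 3 clusters that could be compared, L12 (1.26), L15 (1.11) and L16 (1.40), and the AP-1/Egr part in L15 (1.24) and L16 (1.38) but not in L12 (0.970). Both fibroblast-like clusters had a lower AP-1/Egr level in the knockout library (0.715 in A16 and 0.835 in A17). Their heat shock ratios were 1.09 and 0.853, so the lower value of the class goes with A17 and with fewer cells of A16, whose level was the higher one (5016 CPM in the control library).

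Related genes outside the 35 were taken from 4 further lists. Their counts are over whole classes, and no value with clusters weighted alike is given for them. In neutrophil-like cells they therefore mix levels with the smaller number of L09 cells in the knockout library (54 control and 10 knockout). Of 35 other immediate early genes, 16 of the 27 with enough UMIs were higher and 0 lower in neutrophil-like cells (median 0.72; all genes 16.8% and 18.7%), led by the stress gene Gadd45b (411 and 1475 CPM, 1.84) and the small Maf factors Maff (1.84) and Mafk (1.51). In tumour-like cells 3 were higher and 1 lower of 35 (9.73% and 6.53%), the lower one being Ccn2, a YAP and SRF target, at 40.1 and 19.2 CPM (-1.06). Fibroblast-like cells had 4 higher and 11 lower of 34 (all genes 19.7% and 12.4%), T-like cells 9 and 7 of 31 (10.1% and 16.5%) and monocyte/macrophage-like cells 3 and 1 of 30 (7.92% and 9.83%). Kinases and factors that lie upstream, such as Srf, Creb1 and the Mapk genes, had 0 past the fold of 17 in tumour-like and in monocyte/macrophage-like cells, 2 higher and 3 lower of 17 in T-like, 2 and 1 of 17 in fibroblast-like and 1 and 1 of 12 in neutrophil-like cells.

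The counts in the wider chaperone lists are to be read against the same shares of all genes. Of 37 other cytosolic and mitochondrial chaperones and heat shock factors, 0 passed the fold in tumour-like cells and 0 were higher with 3 lower in monocyte/macrophage-like cells (33 read). In T-like cells 2 were higher and 4 lower of 34, and in neutrophil-like cells 3 and 5 of 21. In fibroblast-like cells 0 were higher and 5 lower, among them Cryab, a small heat shock protein, at 392 and 121 CPM (-1.70). Of 21 endoplasmic reticulum chaperones and unfolded protein response genes, 0 were higher and 1 lower in tumour-like cells (Hyou1, -0.63, median of the list -0.27). In monocyte/macrophage-like cells 1 was higher, Ddit3, the stress factor CHOP, at 57.6 and 101 CPM (0.80), and 1 lower, the asparagine synthetase gene Asns (-1.01). In T-like cells 1 was higher and 1 lower of 19, and in fibroblast-like cells 0 and 4 of 20. Neutrophil-like cells had 4 higher and 3 lower of 18, near the background of 16.8% and 18.7%; among them Ddit3 was 96.9 and 269 CPM (1.46) and Xbp1 113 and 240 CPM (1.09).

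Over 20 class-by-library sums, the genes whose levels followed the mean of the AP-1/Egr part most closely were Pfkfb4 (Pearson r 0.936), Ndel1 (0.930), Klra17 (0.922), Cd300lb (0.914) and Mapkapk2 (0.913). For the heat shock part they were Timm44 (0.867), Pop7 (0.864), Nop9 (0.862), Ndufa10 (0.861) and Chrac1 (0.857). These correlations describe differences between classes that share 2 libraries and their depths, so they carry no test.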

How the data were processed

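Raw UMI counts per gene and cell, as deposited by the authors in 10x matrices, were used. Cell Ranger is given as 8.0.0 per the file headers and as 3.1.3 with build mm10 per the submitters' processing notes, and the 2 do not match. Barcodes under 500 genes or over 15% mitochondrial UMIs were left out (11664 and 10808 passed), then 148 and 341 doublets called by Scrublet. Each library took part in 1 joint clustering (scanpy 1.11.5; 10000 UMIs per cell, 2000 variable genes without 145 stress genes, 30 components, 15 neighbours, Leiden resolution 1, seed 0). Clusters were named from marker lists. A first, stricter naming rule left 5 tumour-like clusters and 1 dendritic cluster unnamed and was dropped after the clusters, but before the member values, had been seen. The strict rule is an alternative, as is leaving out the cell with the most UMIs of a part; both were chosen after seeing the data, as were the split of tumour-like cluster A13 and L11 without 1 cell per library.

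UMIs were summed per class and library. Ratios use a pseudocount of 1 UMI, exact Poisson, Clopper-Pearson and conditional 95% intervals, and no test, since each group is 1 library. PCR duplicates were collapsed by UMI, and cells of a pool are not replicates. The ratio code was tested on simulated data. All 35 members are reported; other genes were named by size of ratio (at most 3 per list and class) or by likeness. Members and lists were chosen with earlier results of these data known. RefSeq promoter entries matched 28 of the 35 members (not Ier2, Fosl1, Hspa8, Hsp90ab1, Egr3, Egr1 and Hsp90aa1); gene positions are GENCODE M21.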

Additional observations from a re-analysis of the deposited data

Results flagged for a closer look

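In fibroblast-like cells the summed AP-1/Egr level was lower in the knockout library (ratio 0.850), and so was the summed heat shock level (0.737), while both ratios were above 1 in tumour-like, T-like, monocyte/macrophage-like and neutrophil-like cells. Classes with under 100 cells in a library were not compared. Among these, the AP-1/Egr ratio was 0.796 in plasma-like, 0.834 in pericyte/smooth muscle-like and 0.804 in migratory DC-like cells, and above 1 in the rest. Their heat shock ratio was 0.909 in acinar-like and 0.988 in NK-like cells, and above 1 in the rest. The difference between fibroblast-like and other cells was not tested, since each group is 1 library. Median UMIs of fibroblast-like cells were 12411.5 in the control and 9129 in the knockout library, and cluster A16 held 265 and 46 of them.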

How the results depend on the processing

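No paired analysis was possible because each group is 1 pooled library. Of 168 member ratios in the 5 classes, 60 were past the 1.5-fold; 145 of 168 and 56 of 60 kept their sign with the clusters of a class weighted alike in both libraries, and 145 and 59 with the mean over cells in place of summed UMIs. With clusters weighted alike, the median log2 ratio of tumour-like cells was -0.11 for the AP-1/Egr and 0.098 for the heat shock part, that of fibroblast-like cells -0.18 for the heat shock part, and that of neutrophil-like cells 0.056 and 0.56; Hspb1 in fibroblast-like cells was 0.48, and in neutrophil-like cells Egr1 was -0.17, Nr4a3 -0.28 and Hspe1 -0.61. Centred on all genes, the medians were 0.13 and 0.27 in tumour-like and -0.40 and -0.44 in fibroblast-like cells. The mean over cells gave 0.20 for the AP-1/Egr part and -0.095 for Hspe1 in neutrophil-like cells. The stricter naming of clusters, which keeps 5635 and 3194 tumour-like cells, gave 0.073 for their heat shock median. A pseudocount of 5 UMIs gave 0.074 for the AP-1/Egr median and -0.81 for Fosl1 in T-like cells. Cells named from their own markers gave -0.45 for the heat shock median in fibroblast-like cells, -0.72 for Klf4 in T-like cells, 0.18 for Nr4a1 in monocyte/macrophage-like cells and -0.0078 for Hspe1 in neutrophil-like cells. In monocyte/macrophage-like cells, the strict cell filter gave 0.80 for Nr4a1 and -0.19 for Fosl1, Leiden resolution 0.5 gave 0.31 for Nr4a1 and resolution 2 gave -0.34 for Fosl1. The cause of each was not tested. The strict filter left 48 and 11 neutrophil-like cells and no value for them. Counts past the fold moved by over 1.5 times in some settings: higher AP-1/Egr members in monocyte/macrophage-like cells numbered 11 under the strict filter against 3, in T-like cells 3 with the pseudocount of 5 against 9, and in neutrophil-like cells 3 with clusters weighted alike against 8.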
